A study of Mus musculus with 120 samples.

Results

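A set of regulators that tissues use heavily during growth and much less in the adult were followed in implanted scaffolds, and 10 of 55487 genes shared by both deposited count tables belong to this set: Igf2bp1, Igf2bp2, Igf2bp3, Lin28b, Hmga1, Hmga2, Sox11, Sox4, St8sia2 and C430049B03Rik. They were taken by gene name, and they were put on the list because earlier results of these data showed several of them high in the first biopsies, so their level at 6 weeks against later times is given below as a description without a test. The scaffolds are microporous implants under the skin of the back, which fill with host tissue and are called an immunological niche (IN). They were implanted in female NOD/ShiLtJ mice, of which some become spontaneously diabetic, and in diabetes-resistant NOR/LtJ mice, and the labels name no other treatment. NOD mice that became hyperglycemic are called progressors and those that did not are called nonprogressors.

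Of the 120 libraries, 23 came from NOR mice at 6, 10, 14, 18 or 22 weeks of age, 39 from nonprogressors and 58 from progressors. Nonprogressors were sampled at 6, 10, 14, 18 and 22 weeks in batch 1 and at 6 and 14 weeks in batch 2, with 6 more libraries labelled by days after implantation. Progressors were sampled at 6 weeks of age and then at −5, −3 and −1 weeks and at onset in both batches, and at −7 weeks in batch 2. All NOR libraries were in batch 1, so values are compared within a batch. The mice differ between the batches with 1 exception: 4 of the 8 libraries at −7 weeks in batch 2 are labelled as progressor mice 1 to 4, whose other libraries are in batch 1 and which have no 6-week library in batch 2. Each mouse carried several scaffolds that were explanted in turn and replaced, so a 6-week biopsy also comes from a mouse with fewer earlier explants than a later one. Age, the number of earlier explants and the time a scaffold had been in place cannot be told apart in these samples. Because the RNA is from whole scaffolds, fewer cells of a type and less RNA per cell cannot be told apart either.

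The set holds several families. LIN28B is an RNA-binding protein that blocks maturation of the let-7 microRNAs, which in turn repress growth genes through matches to their seed in 3′ untranslated regions (3′ UTRs). The IGF2BP proteins bind and stabilise messenger RNAs and are largely fetal, with IGF2BP2 the member that adult tissues keep. HMGA1 and HMGA2 are architectural proteins that bend AT-rich DNA and are abundant in dividing, undifferentiated cells. SOX4 and SOX11 are transcription factors of the SOXC group, used by progenitors of nerve, heart and connective tissue. ST8SIA2 adds polysialic acid to NCAM in the embryo. C430049B03Rik is a non-coding transcript on the X chromosome.

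The seed of let-7 is shown first because it divides the set by a feature read from sequence alone. The members were listed as regulators of growth, the let-7 regulator Lin28b among them. The share of members with a match may therefore follow from that choice. In RefSeq 11 mature mouse microRNAs hold this seed (bases 2 to 8, in capitals, build GRCm38.p6). Of these, 9 are named as 5p products of the let-7 and miR-98 group, from 11 gene loci, and 3 of the 9 are these.
mmu-let-7a-5p: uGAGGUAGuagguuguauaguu
mmu-let-7g-5p: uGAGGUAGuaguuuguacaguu
mmu-miR-98-5p: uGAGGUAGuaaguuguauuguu
The first lies at chr13:48538239-48538260 on the minus strand, the second at chr9:106178846-106178867 on the plus strand and the third at chrX:151913229-151913250 on the plus strand. The letters that pair with this seed are CTACCTC, and they were searched in the sense strand of the longest annotated 3′ UTR of each protein-coding gene in GENCODE M21. Such a match was present in 1879 of 20980 genes (8.96%). It was present in 6 of the 9 coding members and absent from the window of the other 3, Sox11, Sox4 and St8sia2. Hmga2, Lin28b and Igf2bp1 each held 4 matches, in 3′ UTRs of 3014, 4445 and 6337 bases. Among genes whose 3′ UTR was within 20% of the same length, 0.135%, 0.238% and 0.356% held at least as many. Igf2bp2, Igf2bp3 and Hmga1 held 1 match each, as did or exceeded 12%, 13.3% and 7.96% of genes of like length. A match is a description of the letters and not a measured site.

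One match of each of these 6 genes is printed with its flanks, 5′ to 3′ on the transcript, with the match in capitals (GRCm38).
Hmga2: tcaatttCTACCTCagcatcag
Lin28b: gggaagtCTACCTCatgcaagc
Igf2bp1: aagtaaaCTACCTCaaggtgtg
Igf2bp2: ataaaagCTACCTCaggtgttt
Igf2bp3: tactcaaCTACCTCaggtattc
Hmga1: tcacaaaCTACCTCtggacggt
They lie at chr10:120364217-120364238, chr10:45381015-45381036, chr11:95961771-95961792, chr16:22059466-22059487 and chr6:49086780-49086801 on the minus strand and, for Hmga1, at chr17:27563285-27563306 on the plus strand. All but the Hmga1 match are followed by an A, the letter that completes the longer form of a seed match.

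C430049B03Rik (chrX:53055046-53057190, minus strand) ends 696 bases before Mir322 and 991 bases before Mir503 on the same strand, in the cluster that also holds Mir542, Mir450-1, Mir450-2 and Mir450b. The mature products of the 2 nearest genes are shown because the transcript lies just upstream of them.
mmu-miR-322-5p: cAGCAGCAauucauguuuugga
mmu-miR-503-5p: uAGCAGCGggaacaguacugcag
They lie at chrX:53054306-53054327 and chrX:53054027-53054049. Their seeds differ in the last base, and the first of them is shared by 10 mature mouse microRNAs in RefSeq, the other by 1. The microRNA genes of this cluster had too few reads for a test in every comparison, and mature microRNAs were not measured here.

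Counts per library ran from 4722396 to 56185434 in batch 1 and from 29029239 to 43880986 in batch 2. Values are CPM, counts scaled to a common library size, on library sizes scaled by edgeR's TMM method within a batch. A pair of libraries in batch 1 held under 10000000 counts. In the 18-week library of NOR mouse 5, 85.7% of counts fell on 1 ribosomal RNA gene. This leaves so few other counts that 4 reads of Lin28b gave 3.88 CPM there. NOR ranges and overlap counts leave this library out only where that is said, and the NOR log2 differences include it. The 18-week library of nonprogressor mouse 3 held 4722396 counts. Between replicates of a group no pair agreed within sampling noise, and nothing in the labels says that the mice of a group came from separate litters or cages.

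The members differed widely in level. Divided by the annotated exon length, the median level in batch 1 at 6 weeks was 59.4 CPM per kb for Hmga1, 17.0 for Sox4, 7.52 for Igf2bp2, 1.12 for C430049B03Rik and 0.816 for Igf2bp3. Hmga2 (0.389), Sox11 (0.216) and St8sia2 (0.202) followed, and Igf2bp1 (0.0199) was the lowest with a median above 0. At the later times of batch 1 Hmga1 (55.2), Sox4 (10.0) and Igf2bp2 (9.06 CPM per kb) again had the highest medians, while the Igf2bp2 and Sox4 ranges overlapped. Hmga1 counts are uncertain, since mouse has a near-identical copy of it (Hmga1b), and genes lie opposite to parts of Igf2bp1, Igf2bp3, Hmga1, Hmga2, Sox4 and St8sia2, which unstranded counting would not separate.

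Lin28b, the regulator of let-7 itself, was at the limit of detection throughout. It had no count in 86 of 120 libraries and over 3 counts in 4, the highest being 6 counts in a 6-week library of a nonprogressor. At 6 weeks its counts summed to 3 in the 4 NOR libraries, 12 in the 4 nonprogressor libraries of batch 1 and 1 in each of the other 3 sets. A count of 0 allows up to 3 counts per library, so a difference of Lin28b between times was not detectable at this depth, and it passed the filter for no test.

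Igf2bp1, the most strictly fetal IGF2BP gene, was also rare, with no count in 31 of 120 libraries and over 3 counts in 33. All 25 libraries at 6 weeks held at least 1 count. In batch 1 progressors its 6-week level was 0.127, 0.124, 0.228, 0.361 and 0.942 CPM in mice 1 to 5, against 0 to 0.128 later. The 6-week samples summed to 41 counts in 5 libraries and the later ones to 27 in 20, and 1 later library, at 0.128 CPM, reached the lowest 6-week values. In batch 2 nonprogressors the 7 libraries ranged from 0.0566 to 0.514 CPM (67 counts) at 6 weeks against 0 to 0.114 (7 counts) in 6 libraries at 14 weeks. In batch 2 progressors the 5 values at 6 weeks lay between 0.0283 and 0.140 CPM, inside the later range of 0 to 0.254, which was 0 to 0.131 without the −7-week libraries of mice 1 to 4. The NOR values at 6 weeks were 0.115 to 0.244 CPM, with 0 to 0.272 later once the ribosomal library was left out. The 6-week sample was the highest of its mouse in 16 of 24 mice. Igf2bp1 passed the filter for the comparison of progressors and nonprogressors at 6 weeks alone.

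Igf2bp3, which binds growth transcripts in fetal tissue, had higher medians at 6 weeks than later in all 5 sets. At 6 weeks it stood at 7.23, 7.32, 5.07 and 8.33 CPM in NOR mice 1, 2, 4 and 5. In nonprogressor mice 1 to 4 of batch 1 it was 5.31, 6.66, 6.56 and 5.02 CPM, and in progressor mice 1 to 5 it was 6.20, 6.87, 6.17, 8.49 and 7.59 CPM. The later libraries lay between 2.39 and 4.94 CPM in those nonprogressors and between 2.22 and 4.47 CPM in those progressors, so neither overlapped the 6-week values. In NOR the later range was 2.38 to 8.73 CPM, and 2.38 to 5.80 CPM without the ribosomal library, when 2 of 18 later libraries reached the lowest 6-week one. In batch 2 the 7 nonprogressor values at 6 weeks (5.51 to 8.61 CPM, median 7.08) were above all 6 at 14 weeks (3.22 to 5.00 CPM), and the progressor values (6.46 to 8.54, median 6.83) were above 27 of 28 later ones (3.34 to 6.58, median 5.16) and above all 24 once the −7-week libraries of mice 1 to 4 were left out. The fitted log2 difference, 6 weeks minus the mean of the later times, was 0.90 ± 0.17 (SE) in NOR, 0.85 ± 0.11 and 0.65 ± 0.13 in nonprogressors of batches 1 and 2, and 1.05 ± 0.11 and 0.58 ± 0.11 in progressors. The 6-week biopsy was the highest of its mouse in 23 of 24 mice and above the mean of the later ones in 24 of 24.

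Igf2bp2, the adult member of the family, had no common direction. Its median at 6 weeks was 65.7 CPM in NOR (53.8 to 109), 52.4 in nonprogressors of batch 1 (37.4 to 68.6) and 64.7 in progressors of batch 1 (49.97 to 92.6). Later medians were 54.0, 84.9 and 71.5 CPM in the same order. The fitted difference was 0.29 ± 0.25, −0.60 ± 0.22 and −0.23 ± 0.24 on the log2 scale in these 3, and 0.25 ± 0.16 and 0.22 ± 0.18 in batch 2 nonprogressors and progressors. It was the highest of its mouse at 6 weeks in 8 of 24 mice: 2 of 4 in NOR, 0 of 4 and 5 of 6 in nonprogressors of batches 1 and 2, and 0 of 5 and 1 of 5 in progressors. Its 6-week and later ranges overlapped in all 5 sets, unlike those of Igf2bp3.

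Hmga2, the high mobility group gene with 4 let-7 matches, had estimates that varied over the 5 sets, which were not tested against each other. In batch 2 progressors mice 6 to 10 had 4.61, 6.86, 3.43, 3.26 and 3.77 CPM at 6 weeks, all above the 28 later libraries (0.874 to 3.11, median 1.46). The 7 nonprogressors of batch 2 had 2.77 to 6.17 CPM (median 4.14) against 0.739 to 3.93 (median 1.45) at 14 weeks, with 1 of 6 later libraries inside the 6-week range. In batch 1 the nonprogressor values of 1.83 to 3.51 CPM at 6 weeks were inside the later range of 0.762 to 4.92. The log2 difference was 1.37 ± 0.22 and 1.23 ± 0.34 in the progressors and nonprogressors of batch 2, 0.72 ± 0.25 and 0.15 ± 0.32 in those of batch 1, and 0.82 ± 0.35 in NOR. Hmga1, its abundant relative, had log2 differences from −0.08 to 0.24 over the 5 sets, each with an SE of 0.11 to 0.15, and its 6-week range overlapped the later one in all of them.

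Sox11, a SOXC factor of early progenitors, had 1.95, 1.55, 0.536 and 3.47 CPM at 6 weeks in NOR mice 1, 2, 4 and 5, against a later median of 0.304. In nonprogressor mice 1 to 4 it had 1.31, 0.794, 1.46 and 3.29 CPM, against a later median of 0.545, and in progressor mice 1 to 5 of batch 1 it had 1.67, 1.79, 5.42, 1.92 and 2.41 CPM, against 0.614. In each of these sets some later libraries reached the lowest 6-week value: 3 of 18 in NOR without the ribosomal library, 3 of 16 in nonprogressors and 1 of 20 in progressors. The last was mouse 2 at −3 weeks with 5.66 CPM, above every 6-week value. In batch 2 progressors mice 6 to 10 had 1.67, 1.99, 1.28, 1.11 and 0.935 CPM, and 1 of 28 later libraries reached the lowest of them. The 7 nonprogressors of batch 2 had 0.498 to 1.55 CPM (median 0.848) at 6 weeks against 0.0985 to 0.678 (median 0.498) at 14 weeks, and 3 of 6 later libraries reached the lowest 6-week value. The log2 differences were 2.02 ± 0.48 in NOR, 1.63 ± 0.43 and 1.06 ± 0.34 in nonprogressors and 1.65 ± 0.49 and 1.85 ± 0.34 in progressors. Sox11 is among the genes that the study itself selected on these samples to separate progressors, so its pattern in them is not independent of that choice.

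Sox4, the more abundant SOXC factor, had smaller differences on the log2 scale. The 5 progressors of batch 1 ranged from 67.2 to 119 CPM at 6 weeks (median 88.3) against 21.2 to 79.7 CPM later (median 42.9), with 1 of 20 later libraries inside the 6-week range. Its log2 difference was 1.07 ± 0.20 there, 0.75 ± 0.12 in progressors of batch 2, 0.65 ± 0.19 and 0.43 ± 0.11 in nonprogressors and 0.33 ± 0.21 in NOR. In NOR 15 of 19 later libraries were at or above the lowest 6-week value of 45.8 CPM. The 6-week biopsy was nevertheless the highest of its mouse in 21 of 24 mice over the 5 sets.

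St8sia2, the embryonic polysialic acid synthase, had a larger log2 difference than the other 7 fitted members in nonprogressors of batch 1 and in both sets of progressors. Igf2bp1 was too rare to be fitted; the log2 ratio of its mean CPM was 3.04 in batch 1 progressors, on the counts given above, against 1.81 for St8sia2 on the same scale. Nonprogressor mice 1 to 4 had 1.93, 0.794, 1.34 and 1.62 CPM at 6 weeks, above all 16 later libraries (0 to 0.741, median 0.187). The 7 nonprogressors of batch 2 had 1.14 to 2.96 CPM (median 1.47), above all 6 at 14 weeks (0.221 to 0.452). Progressors were more mixed. In batch 1 mice 1 to 5 had 1.09, 1.95, 2.58, 0.601 and 0.412 CPM against 0.0219 to 1.44 later, and 8 of 20 later libraries reached the lowest 6-week value. In batch 2 mice 6, 7, 8 and 10 had 1.81, 3.14, 1.80 and 3.26 CPM and mouse 9 had 0.414, so that 5 of 28 later libraries lay inside the range. The log2 differences were 2.76 ± 0.39 and 2.31 ± 0.27 in nonprogressors, 1.91 ± 0.46 and 2.91 ± 0.47 in progressors and 1.42 ± 0.49 in NOR, where 10 of 18 later libraries overlapped the 6-week range without the ribosomal one.

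C430049B03Rik, the non-coding transcript beside Mir322 and Mir503, was highest at 6 weeks in the NOD mice. In nonprogressors of batch 2 it had 1.09, 2.80, 4.54, 2.71, 3.65, 3.00 and 3.65 CPM in mice 5 to 11, against 0.443 to 0.821 at 14 weeks. In progressors of batch 2 it had 4.34, 2.33, 3.20, 4.42 and 2.78 CPM in mice 6 to 10, against 0.164 to 1.18 later. Neither set overlapped, and neither did the nonprogressors of batch 1 (1.02 to 2.11 against 0.190 to 0.970 CPM). In progressors of batch 1 7 of 20 later libraries reached the lowest 6-week value of 0.706 CPM, and in NOR 15 of 19 reached 0.390 CPM. The log2 differences were 2.36 ± 0.29 and 1.64 ± 0.31 in nonprogressors of batches 2 and 1, 2.73 ± 0.20 and 1.71 ± 0.28 in progressors, and 1.11 ± 0.33 in NOR.

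**Figure D1:**
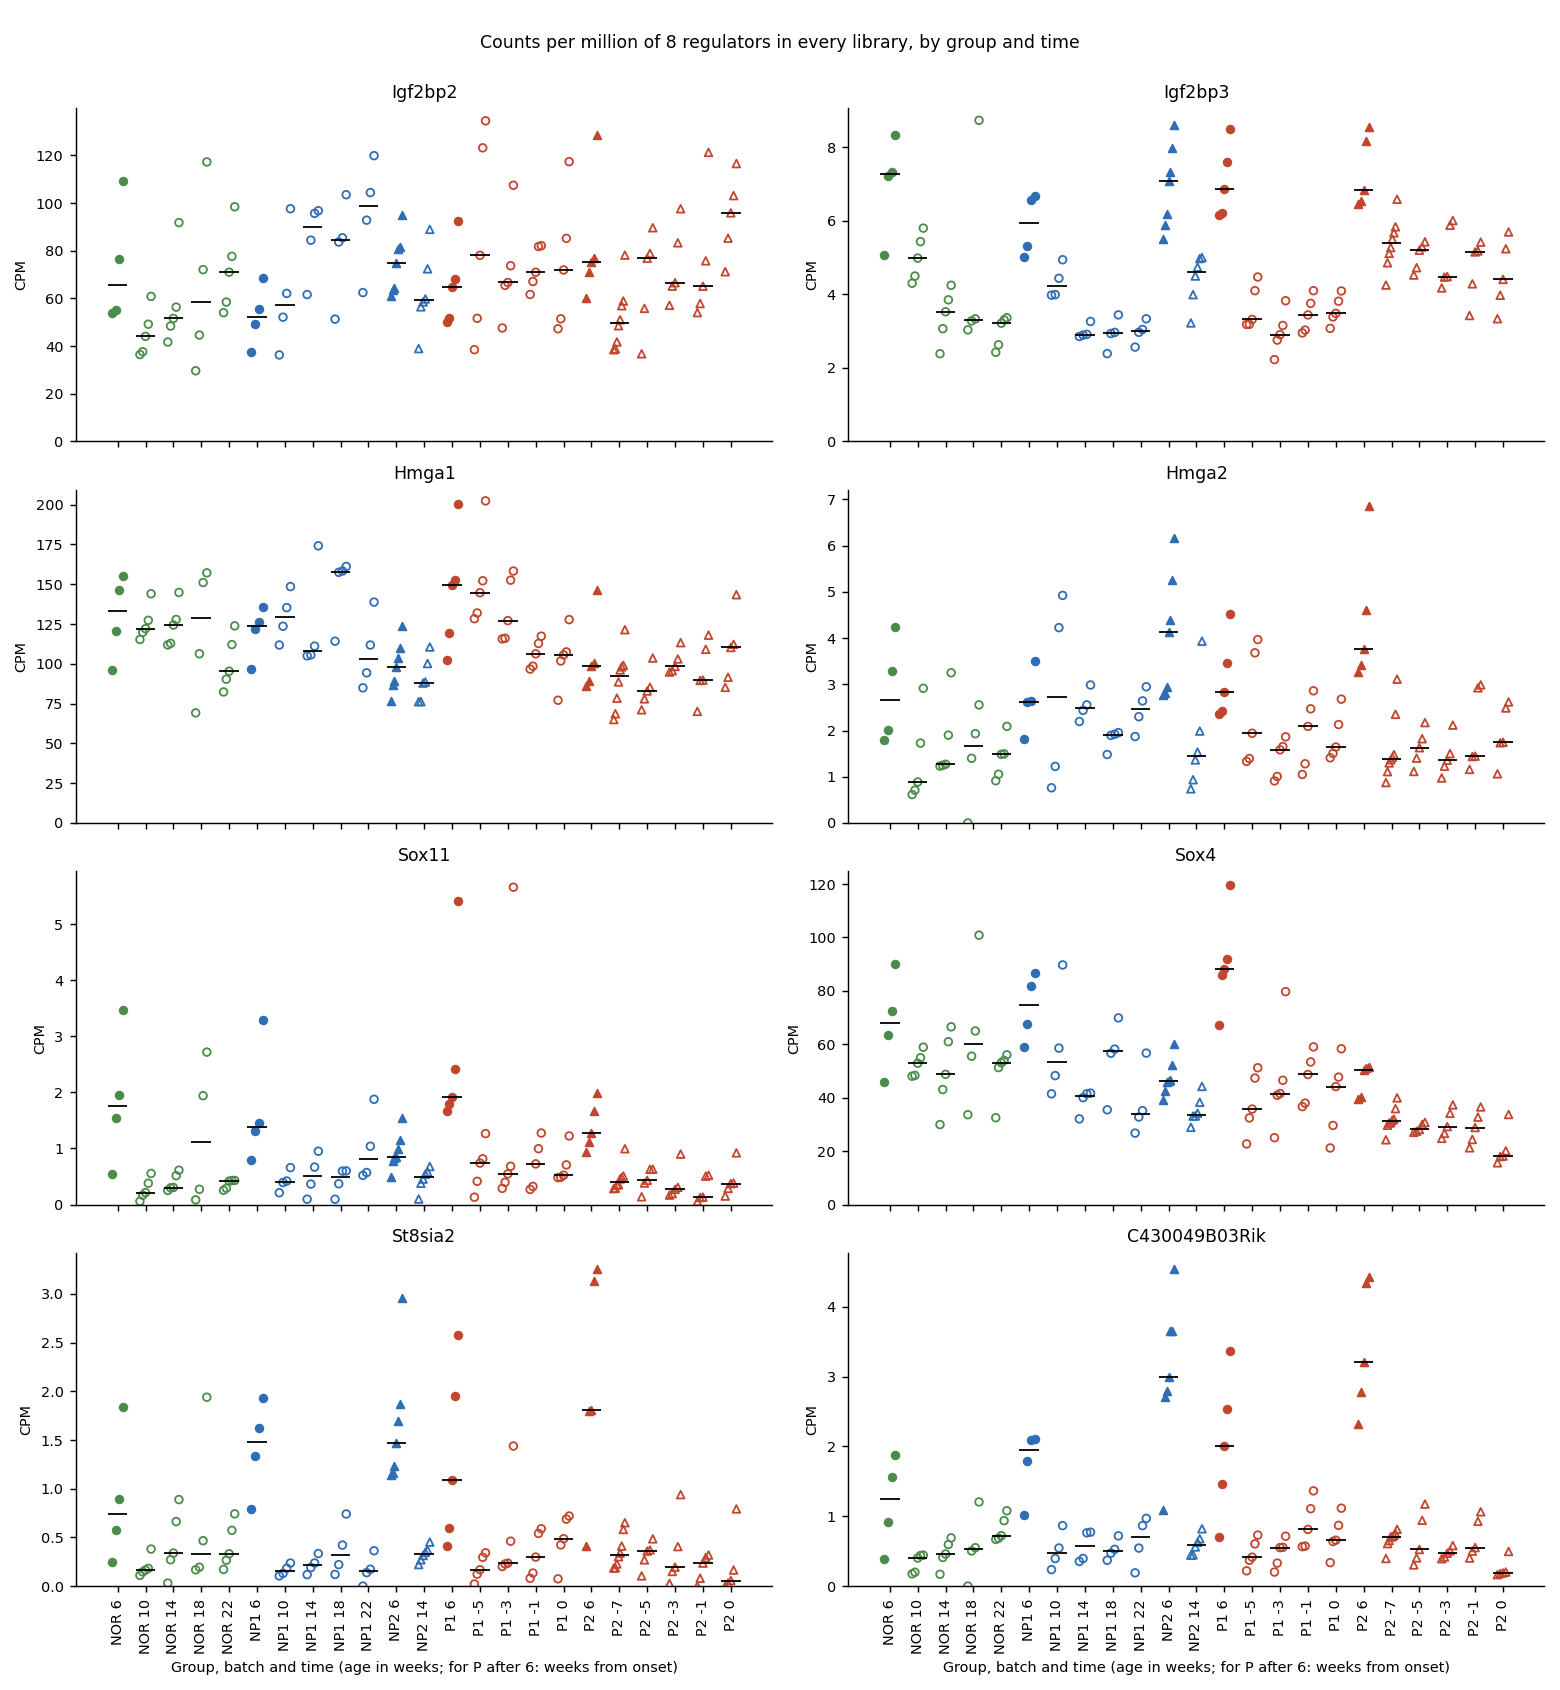
Each point is a library, with CPM on a linear axis from 0 and groups along the horizontal axis by condition (NOR green, nonprogressors NP blue, progressors P red), batch (1 circles, 2 triangles) and time; 6-week samples are filled and black lines are group medians. Igf2bp3, St8sia2 and C430049B03Rik have filled points above the open ones in both nonprogressor batches, while Igf2bp2 and Hmga1 have none of this separation.

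Counted over the set, 0 members in NOR, 3 in nonprogressors of batch 1 (Igf2bp3, St8sia2, C430049B03Rik), the same 3 in nonprogressors of batch 2, 1 in progressors of batch 1 (Igf2bp3) and 2 in progressors of batch 2 (Hmga2, C430049B03Rik) had every 6-week library above every later one. Over all genes tested, the share with that order was 0.0204% in NOR, 0.553% and 5.57% in nonprogressors of batches 1 and 2 and 1.12% and 2.1% in progressors. The counts follow from how the members were chosen and are given for description. They were the same without the libraries of under 10000000 counts. Without the −7-week libraries of mice 1 to 4, Igf2bp3 made 3 in progressors of batch 2. With edgeR's quasi-likelihood test and a Benjamini-Hochberg adjusted p under 0.05, the share of all genes that differed between 6 weeks and later was 0.0357% in NOR (7 of 19628), 13.8% and 34.1% in nonprogressors of batches 1 and 2 and 27.1% and 30.8% in progressors. At these background rates a difference at 6 weeks is common in NOD mice.

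**Figure D2:**
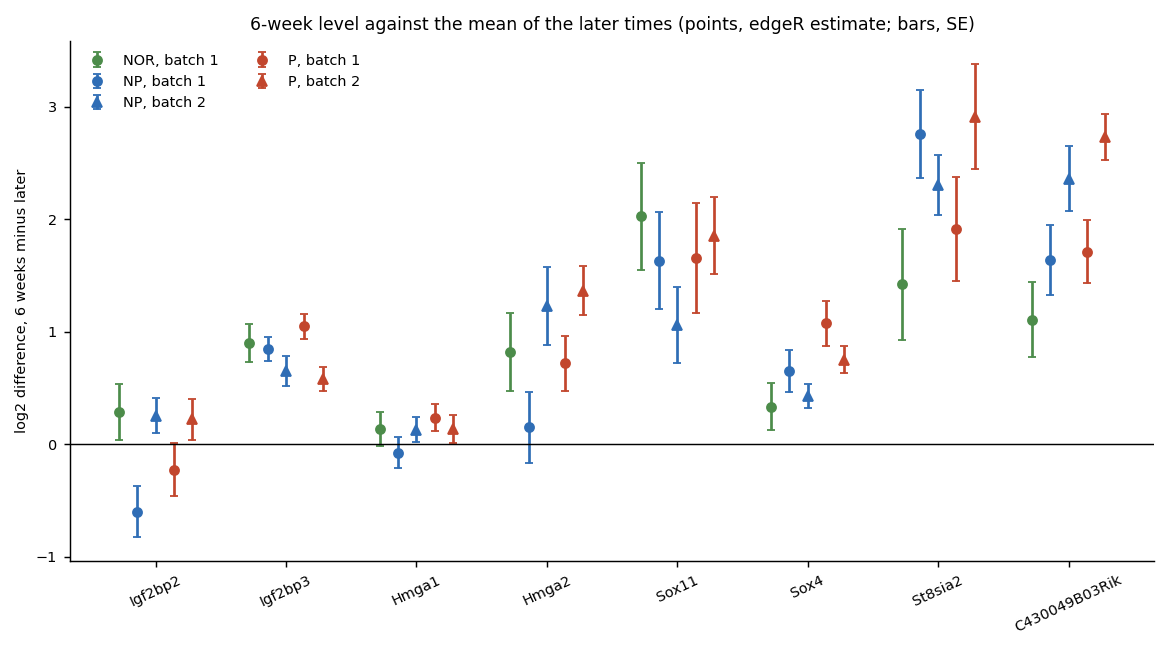
Points give the edgeR log2 difference of 6 weeks minus the mean of the later times for 8 members, and bars give the SE, in NOR (green), nonprogressors (blue) and progressors (red), with circles for batch 1 and triangles for batch 2. St8sia2, C430049B03Rik and Sox11 lie above 1 in every set, Igf2bp3 lies between 0.58 and 1.05, and Igf2bp2 and Hmga1 scatter around 0.

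The slope over the times after 6 weeks was not used in choosing the genes, though the same libraries were the later side of the 6-week contrast. It was tested over all genes, in log2 units per week. In NOR between 10 and 22 weeks (19 libraries of 5 mice), 2 of 8 members tested passed, where 12.3% of all genes did (2318, and 799, 1251 and 1473 without mouse 1, 2 or 3). C430049B03Rik rose by 0.11 ± 0.03 (SE) per week, adjusted p = 0.0163 with edgeR. Its values in mice 1 to 5 were 0.443, 0.402, 0.176, 0.199 and 0.439 CPM at 10 weeks and 0.937, 0.685, 0.722, 0.668 and 1.08 CPM at 22 weeks, which do not overlap. The call was lost without NOR mouse 1 (adjusted p = 0.0578) or mouse 4 (adjusted p = 0.0508), in both cases edgeR, and it held without the ribosomal library (adjusted p = 0.00902). Igf2bp3 fell by 0.05 per week, adjusted p = 0.0487 with edgeR. It went from 5.43, 4.50, 5.80, 4.98 and 4.30 CPM at 10 weeks to 2.42, 2.63, 3.30, 3.21 and 3.36 CPM at 22 weeks, again without overlap. In NOR these 2 ages are shown only for the members that passed. The share of all genes without overlap between them is not given here. With the mouse as a block the edgeR adjusted p was 0.0686, and it was 0.122 to 0.223 without any 1 of mice 1 to 4, so this call rests on the full set. The late change thus ran on from the 6-week difference for Igf2bp3 and against it for C430049B03Rik.

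In nonprogressors between 10 and 22 weeks (16 libraries of 4 mice) 0 of 7 members passed with edgeR, where 5.97% of all genes did. That background rests on all 4 mice, since the 1104 genes became 2, 472, 340 and 185 without mouse 1, 2, 3 or 4. Of the members 1 had an unadjusted p under 0.05 with edgeR, as did 4518 of all 18503 genes. With DESeq2 1 member and 2315 genes passed. The member was Igf2bp3 in both cases, with a slope of −0.04 ± 0.01 (SE) and an adjusted p of 0.0684 in edgeR and 0.0360 in DESeq2. Its values went from 4.43, 3.98, 4.94 and 3.99 CPM in mice 1 to 4 at 10 weeks to 3.04, 3.33, 2.97 and 2.56 CPM at 22 weeks, which do not overlap. The share of all genes with that order is not given here. At 22 weeks 12.8, 19.2, 24.3 and 30.5% of counts in these mice fell on 1 gene, Rn7s2, against 3.08 to 4.55% at 10 weeks. Library composition thus changed with age in nonprogressors, and its part in their slopes and in the background was not tested. The slopes of nonprogressors and NOR differed for 0 of 8 members, at an unadjusted p as well and with DESeq2, where 2.45% of all genes passed (485, and 119, 186 and 296 without NOR mouse 1, 2 or 5 and 211 and 2 without nonprogressor mouse 1 or 4). For Igf2bp3 the difference in slope was 0.01 with a 95% interval of −0.03 to 0.06, and for C430049B03Rik it was −0.09 with an interval of −0.18 to 0.0025, adjusted p = 0.380 with edgeR.

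In progressors from −7 weeks to onset (48 libraries, batch as a term) 0 of 8 members passed with edgeR or DESeq2, where 14.2% of all genes passed with edgeR. With edgeR 1 member had an unadjusted p under 0.05, as did 5995 of all 20303 genes. That member was Igf2bp2, with a slope of 0.07 ± 0.03 (SE) per week and an adjusted p of 0.0897 with edgeR. Without the −7-week libraries of mice 1 to 4, left out after the mouse numbers were compared, its slope was 0.04 ± 0.03 (SE), adjusted p = 0.399 with edgeR, 0 members had an unadjusted p under 0.05 and 1171 genes passed in place of 2889. Without mouse 9 the count was 1411. Within batch 2 the Igf2bp2 slope was 0.11, adjusted p = 0.00450 with edgeR, and within batch 1, which has no −7-week library, it was −0.04, adjusted p = 0.678. Hmga1 in batch 1 progressor mice 1 to 5 was 128, 152, 145, 132 and 202 CPM at −5 weeks and 102, 77.1, 128, 107 and 106 CPM at onset, while in mice 6 to 10 of batch 2 it was 104, 78.0, 71.1, 85.2 and 82.9 CPM and then 85.2, 110, 143, 91.5 and 112 CPM. The Hmga1 slope was −0.12 ± 0.02 within batch 1, adjusted p = 0.0104, and 0.04 ± 0.02 within batch 2, adjusted p = 0.121, both in edgeR. A test of the difference between the batches over −5 weeks to onset, added after these signs were seen, gave 0.18 ± 0.04 per week for Hmga1, adjusted p = 0.00368 with edgeR, and 1 of 8 members passed where 4.71% of all genes did. For Igf2bp2 the same test gave 0.12 ± 0.07 per week, adjusted p = 0.318 with edgeR, so its slopes were not shown to differ between batches. From −5 weeks on each batch holds its own mice and its own sequencer, which cannot be told apart.

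**Figure D3:**
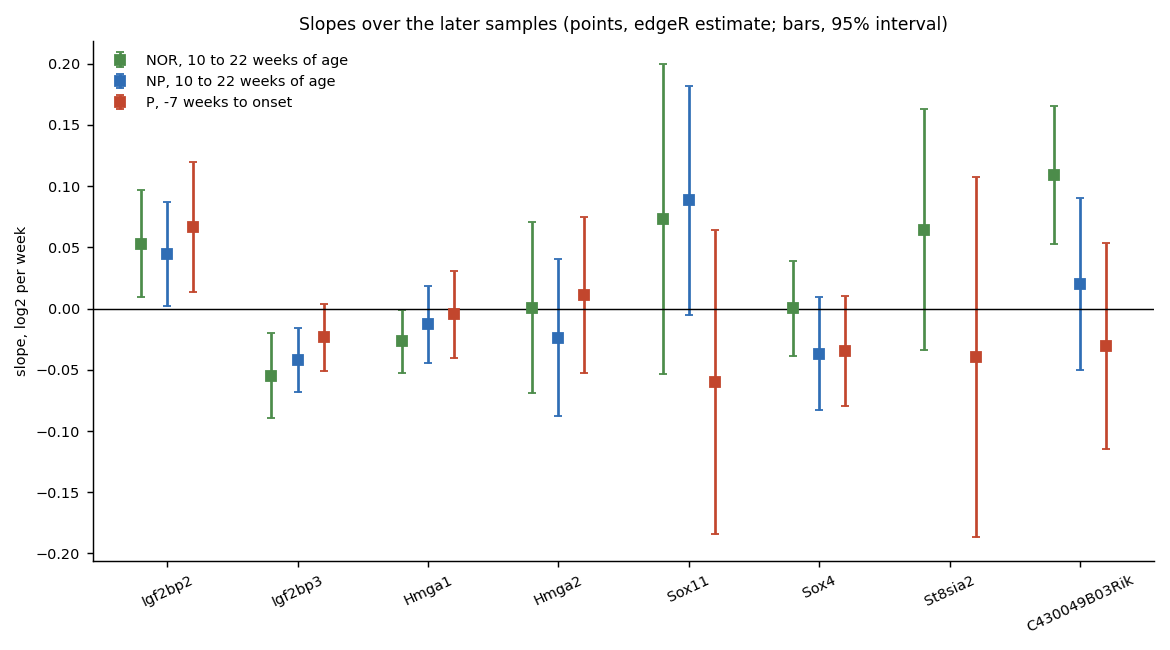
Points give the edgeR slope of each member in log2 units per week and bars give its 95% interval, for NOR (green) and nonprogressors (blue) from 10 to 22 weeks of age and for progressors (red) from −7 weeks to onset; St8sia2 was not tested in nonprogressors. C430049B03Rik and Igf2bp3 in NOR have intervals clear of 0 and pass adjustment, at 0.11 and −0.05. Hmga1 in NOR, Igf2bp3 in nonprogressors and Igf2bp2 in every group also have intervals clear of 0 but do not pass. The intervals are normal ones from the SE and narrower than the test: Hmga1 in NOR and Igf2bp2 in nonprogressors had unadjusted p of 0.057 and 0.058 with edgeR.

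The groups were next compared at one age. At 6 weeks 0 of 9 members differed between the 10 progressors and the 11 nonprogressors, as did 0% of all 20090 genes with edgeR and 0 with DESeq2; 999 genes and 1 member had an unadjusted p under 0.05. The member was Sox11, 0.59 ± 0.26 (SE) higher in progressors on the log2 scale, adjusted p = 0.909 with edgeR, and 0.61 and 0.55 within batches 1 and 2. For Igf2bp3 the difference was 0.16 with a 95% interval of −0.03 to 0.35, and for St8sia2 it was 0.17 with an interval of −0.45 to 0.79. Between NOD and NOR at 6 weeks in batch 1 0 of 8 members passed with edgeR or DESeq2 and 0 had an unadjusted p under 0.05, where 2.11% of all genes passed (403, and 267 without NOR mouse 4). C430049B03Rik was 0.66 higher in NOD with an interval of −0.13 to 1.45, and Igf2bp3 was −0.11 with an interval of −0.40 to 0.19. With the later libraries of each mouse summed, 0 of 8 members differed between nonprogressors and NOR with edgeR, where 5.05% of all genes did (1117, and 709 and 718 without NOR mouse 1 or 3). Of the members 3 had an unadjusted p under 0.05 (Igf2bp2, Hmga1, Hmga2) with edgeR, as did 4269 of all 22128 genes. With DESeq2 1 member and 2000 genes passed. Igf2bp2 was 0.38 ± 0.10 (SE) higher in nonprogressors, adjusted p = 0.0768 with edgeR and 0.0131 with DESeq2.

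Genes that belong to the same pathways were read from lists that hold none of the members. These lists and the marker lists below were also chosen with earlier results of these data known. Their counts at 6 weeks are therefore a description. The first was the juvenile growth program, 14 imprinted and other growth genes of young tissue. At 6 weeks 10 and 7 of 14 were higher in nonprogressors of batches 1 and 2, 9 and 7 in progressors and 3 in NOR, with 0 lower in any set. Of all genes tested, 13.8% and 34.1% passed in either direction in these nonprogressors, 27.1% and 30.8% in progressors and 0.0357% in NOR. Dlk1, an imprinted inhibitor of adipocyte formation, was 4.68 ± 0.42 (SE) higher on the log2 scale in progressors of batch 2, Mest was 3.48 ± 0.32 higher and H19, the imprinted transcript beside Igf2, was 2.04 ± 0.33 higher. Like Sox11, Dlk1 is among the genes that the study selected on these samples, so its pattern in them is not independent of that choice. In NOR H19 (2.03), Mest (2.12) and Plagl1 (1.67) were the 3 that passed. The median log2 difference of the list was 0.70 in NOR and from 0.43 to 1.56 in the NOD sets, and that of all genes was between −0.03 and 0.01. Over the later times 5 of 14 fell and 2 rose in NOR, 3 fell and 0 rose in nonprogressors, and 5 fell and 1 rose in progressors toward onset. Smoc2 fell in all 3, by 0.24, 0.28 and 0.35 per week on the log2 scale.

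Of 13 let-7 growth targets, 0 passed in NOR at 6 weeks, 2 were lower and 0 higher in nonprogressors of batch 1, and 5 were higher in those of batch 2. In progressors 4 were higher and 2 lower in batch 1, and 6 were higher and 3 lower in batch 2. Arid3a, a DNA-binding protein, was lower in progressors of batch 2, with a log2 difference of −0.31 ± 0.09. The median difference of the list was −0.07 to 0.24 over the 5 sets. The let-7 and LIN28 machinery list moved little: of 8 or 9 tested, at most 2 were higher and at most 2 lower in any set, with medians between −0.10 and 0.05. Drosha, which makes the first microRNA cut, was 0.56 ± 0.07 higher in batch 1 progressors and Dicer1, which makes the second, was −0.16 ± 0.05.

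Of 9 transcripts known to associate with IGF2BP proteins, 1 was higher at 6 weeks in NOR (H19), 3 and 4 in nonprogressors and 5 and 5 in progressors, with 0 lower. Gap43, a growth-cone protein, was 2.43 ± 0.36 higher in progressors of batch 2 and Lamb2, a laminin chain, was 0.82 ± 0.12 higher. Of 3 SOXC partners and targets tested, 0 passed in NOR and 1 or 2 were higher in each NOD set. Tubb3, a neuronal tubulin, was 2.56 ± 0.43 higher in batch 2 progressors, and Tead2, a partner of growth control, was 0.94 ± 0.22 higher in batch 1 progressors. Of 9 genes of the polysialic acid pathway, at most 2 were higher and at most 3 lower. St8sia4, the other polysialic acid synthase, was −0.99 ± 0.15 in batch 1 progressors and −0.71 ± 0.13 in batch 2, the opposite direction to the St8sia2 values above. Of 7 other high mobility group genes 0 passed in NOR, 3 and 4 were higher in nonprogressors and 1 and 3 in progressors. Hmgb3 was 0.98 ± 0.22 higher in nonprogressors of batch 1. Differences between sets in these counts were not tested.

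Markers of cell types moved over the same contrast. Summed over 10 proliferation genes the level was 290 to 344 CPM at 6 weeks against 122 to 278 CPM later in nonprogressors of batch 2, and 166 to 233 against 105 to 196 CPM in NOR. Of these 10 genes, 6 and 9 were higher in nonprogressors of batches 1 and 2, 6 and 9 in progressors and 0 in NOR. Of 6 fibroblast genes 3 and 6 were higher in nonprogressors and 5 and 6 in progressors, and the summed level in batch 2 progressors was 31009 to 45798 CPM at 6 weeks against 5145 to 26566 later. Of 6 adipocyte genes all 6 were lower in both NOD sets of batch 2, with 11.5 to 21.3 CPM in all at 6 weeks against 24.3 to 890 CPM later in progressors. In batch 1 the median adipocyte sum was higher at 6 weeks, at 179.6 against 57.4 CPM in NOR, 162 against 20.8 in nonprogressors and 261 against 44.1 in progressors, with 1 of 6 genes passing as higher in the progressors and 0 in the others, and the ranges overlapped. The median sum of 6 skeletal muscle genes was 66.8 CPM at 6 weeks against 13478 later in nonprogressors of batch 2, where all 6 were lower, and 192 against 1579 CPM in progressors of batch 2, where 0 passed. In batch 1 it was 9237 against 1849 CPM in NOR, 9661 against 378 in nonprogressors and 2518 against 2522 in progressors, with 0 genes passing. Of 5 mammary epithelium genes tested 4 were lower in progressors of batch 2, with a median sum of 0.601 CPM against 23.5 later, and 3 of 5 B cell genes were lower there (2.07 against 3.02 CPM). In nonprogressors of batch 2 no mammary gene passed the filter, with sums of 0.0566 to 0.435 CPM at 6 weeks against 0.826 to 176 later. Of 6 Schwann cell genes 2 and 4 were higher in nonprogressors and 2 and 3 in progressors. Their median sum was nevertheless lower at 6 weeks in progressors of batch 2 (91.1 against 110 CPM). It was higher in NOR and the other NOD sets, with overlapping ranges. Of 6 T cell genes 2 and 3 were lower in the nonprogressors and progressors of batch 2. The T cell medians there were 9.45 against 11.2 and 7.60 against 14.9 CPM. In batch 1 they were higher at 6 weeks: 16.4 against 9.21 CPM (NOR), 9.89 against 8.41 (nonprogressors) and 13.9 against 7.12 (progressors). The macrophage sum, between 3167 and 10657 CPM over all sets, was the highest of the immune lists. The part of these cell types in the members' values was not tested.

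**Figure D4:**
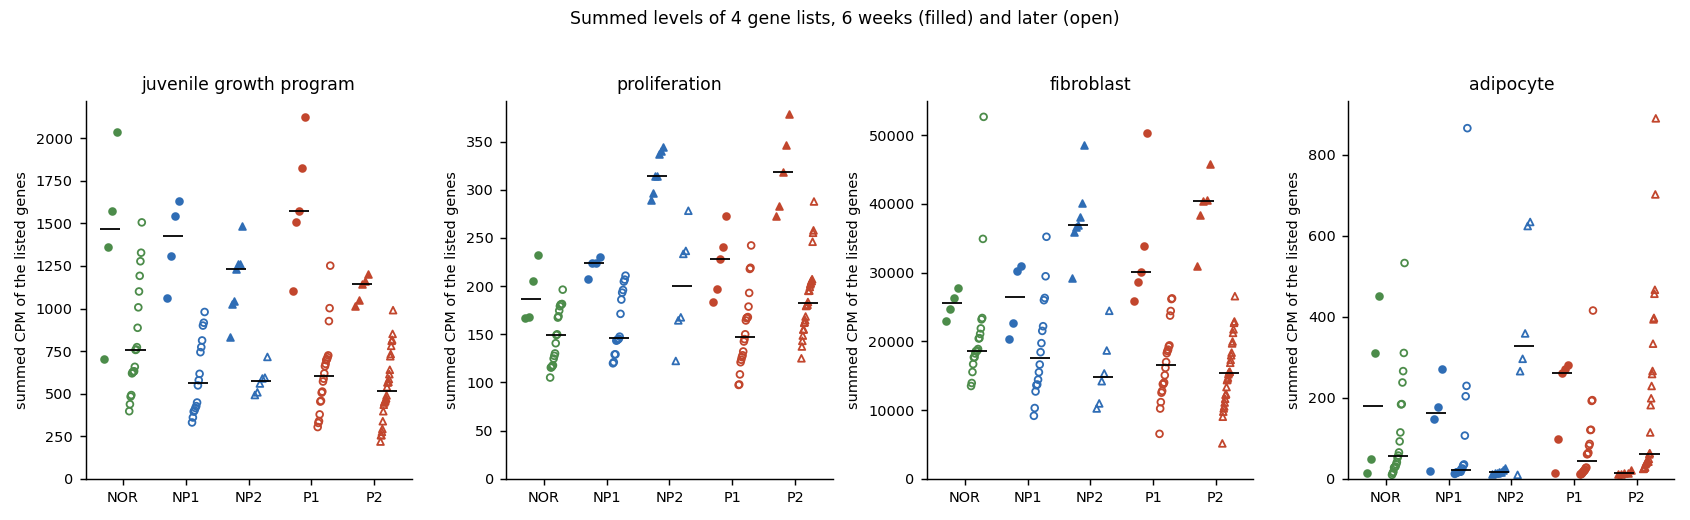
Each point is a library and gives the summed CPM of a gene list on a linear axis from 0, at 6 weeks (filled) and later (open), for NOR and for nonprogressors (NP) and progressors (P) of batches 1 (circles) and 2 (triangles); black lines are medians. Juvenile growth, proliferation and fibroblast medians are higher at 6 weeks in all 5 sets, and adipocyte sums at 6 weeks are at or below 25.9 CPM in both sets of batch 2.

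Among 21163 genes, those whose log2 CPM was most like the mean of the members over the 74 libraries of batch 1 and the 46 of batch 2 were Cdh2, Farp1, Col4a5, Kdelr1 and Cercam. Their Pearson r was 0.76 and 0.88 for Cdh2 (N-cadherin), 0.75 and 0.80 for Farp1, 0.70 and 0.72 for Col4a5, a basement membrane collagen, 0.70 and 0.84 for Kdelr1, a receptor of the secretory pathway, and 0.69 and 0.86 for Cercam. Median Cdh2 was 23.9 CPM at 6 weeks and 6.72 later in nonprogressors of batch 2, and 13.3 against 7.88 CPM in NOR. The libraries share depth and composition, and the likeness is a description. Over the later libraries only, without the 6-week ones, 36 pairs of 9 members in batch 1 (55 libraries) had a median Spearman rho of 0.01 and 28 pairs of 8 in batch 2 (34 libraries) had −0.13. Sox4 went with St8sia2 (0.38 and 0.42) and with Sox11 (0.29 and 0.34) in both batches, and Igf2bp2 went with Hmga2 (0.57 and 0.45) and against Sox4 (−0.54 and −0.32).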

How the data were processed

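Bulk total RNA from explanted scaffolds, depleted of ribosomal RNA, was sequenced by the authors in 2 batches on different instruments. The deposited values are expected counts per Ensembl gene, estimated by the authors, unnormalized whole numbers, 1 table per batch. The submitters' processing notes name cutadapt, FastQC, STAR, RSEM, MultiQC and the build GRCm38; versions, annotation release and strand setting are not given in the sources used here. Every per-sample column was used. The members and gene lists were chosen with earlier results of these data known.

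Genes in both tables were filtered with filterByExpr, scaled by TMM and tested with edgeR 4.0.16 in R 4.3.3 (quasi-likelihood test, Benjamini-Hochberg adjustment over all genes tested, threshold 0.05), with batch as a term where a comparison spans both. A 6-week difference is the 6-week mean minus the mean of the later time points of that batch. DESeq2 1.42.0, other size factors, no filter, the mouse as a block and left-out mice were alternatives. The comparison of nonprogressors and NOR after 6 weeks used counts summed per mouse. P-values measure the spread between these samples. The test was checked on simulated data of independent libraries with a common dispersion, with changes placed only in well-counted genes. That check does not cover repeated biopsies of a mouse or genes with few counts.

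Genes named are the members, at most 3 of each list per comparison with the largest change past the threshold, and the 5 genes whose log2(CPM + 0.1) had the highest of the lower of 2 Pearson r with the members' mean z-score. Some genes that this rule names are not reported here. Repeated biopsies are paired by the mouse number in the labels. Biopsies of a mouse deviated from their group means with a mean r between −0.09 and 0.03 over 2000 genes. Exon lengths, coordinates and 3′ UTRs came from GENCODE M21 and microRNAs from RefSeq.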

Additional observations from a re-analysis of the deposited data

Results flagged for a closer look

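Libraries that stood far from the rest of their group by Dixon's test were found in 19 of 184 groups of 4 to 8 libraries, over the 8 members that passed the filter; chance flags about 1 in 20 groups. The 18-week library of NOR mouse 5, with most counts on ribosomal RNA, was the highest of 4 for Igf2bp3 (8.73 CPM, next 3.33) and St8sia2 (1.94, next 0.4664). Progressor mouse 2 at −3 weeks in batch 1 was the highest of 5 for Sox11 (5.66 CPM, next 0.682) and St8sia2 (1.44, next 0.462). Progressor mouse 7 of batch 2 was the highest of 5 at 6 weeks for Hmga1 (146 CPM, next 101) and Igf2bp2 (128, next 76.8), and at onset for Sox4 (33.7, next 20.1) and St8sia2 (0.793, next 0.165); it was also the highest of 8 at −7 weeks for Sox11 (0.995, next 0.508). Nonprogressor mouse 3 of batch 1 was the highest of 4 at 14 weeks for Hmga1 (174 CPM) and Igf2bp3 (3.26 CPM), and its shallow 18-week library was the lowest for Hmga2 (1.48 CPM).

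Single values of the same kind were Hmga1 in nonprogressor mouse 1 at 18 weeks (114 CPM, lowest of 4), Sox11 in progressor mouse 3 at 6 weeks in batch 1 (5.42 CPM) and in progressor mouse 10 at −3 weeks (0.899 CPM), and C430049B03Rik in progressor mouse 9 at onset (0.496 CPM). The others were Sox4 in NOR mouse 4 at 22 weeks (32.5 CPM, lowest of 5), St8sia2 in NOR mouse 3 at 10 weeks (0.381 CPM) and St8sia2 in nonprogressor mouse 11 at 6 weeks in batch 2 (2.96 CPM). The Hmga1 slope of progressors toward onset differed between the batches by 0.18 log2 units per week, batch 2 minus batch 1, by a test of that difference with edgeR.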

How the results depend on the processing

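The slope of NOR gave 1 member in place of 2 with other size factors, without a filter on low counts and with the mouse as a replicate block; it gave 4063 genes with DESeq2 and 3910 without the 18-week library of NOR mouse 5, against 2318. The nonprogressor slope gave 2315 genes and 1 member with DESeq2 and 673 genes without a filter, against 1104. The difference of these slopes gave 1072 genes with DESeq2, 317 without a filter, 308 with the mouse as a block, 770 without the ribosomal library and 927 without libraries under 10000000 counts, a choice made after seeing the data, against 485. The progressor slope gave 1559 genes with the mouse as a block, 1420 within batch 1 and 1171 without the −7-week libraries of mice 1 to 4, a choice made after seeing the data, against 2889, and 1 member within batch 1, within batch 2 and without a batch term. NOD against NOR at 6 weeks gave 775 genes with DESeq2 against 403, and later nonprogressors against NOR gave 2000 genes and 1 member against 1117 and 0. For 6 weeks against later in NOR the count was 47 with DESeq2, 12 without a filter, 2 with the mouse as a block and 12 without the ribosomal library, against 7. The mouse as a block changed no other call of a member.

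Leaving out 1 mouse at a time gave 799 to 2224 genes and 0 to 2 members for the NOR slope (lowest without mouse 1), 2 to 472 genes for the nonprogressor slope (lowest without mouse 1) and 2 to 637 for their difference (lowest without nonprogressor mouse 4). It gave 1411 to 3153 genes (lowest without mouse 9) and 0 to 1 member (Igf2bp2 without mouse 5, adjusted p = 0.0314 with edgeR) for the progressor slope, 267 to 337 for NOD against NOR at 6 weeks, and 709 to 1024 genes and 0 to 1 member (Igf2bp2 without nonprogressor mouse 3) for later nonprogressors against NOR. For 6 weeks against later it gave 0 to 54 genes in NOR, 377 to 2766 in nonprogressors of batch 1 (lowest without mouse 1) and 2939 to 4996 in progressors of batch 1 (lowest without mouse 3).

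The sign of a tested difference of a member turned in 49 cases; none of these passed the threshold with edgeR (lowest adjusted p = 0.121), and the cause was not tested. Progressor slopes turned within batch 1 for Igf2bp2 (−0.038), Hmga2 (−0.058), Sox4 (0.023), St8sia2 (0.18) and C430049B03Rik (0.18), within batch 2 for Hmga1 (0.039), with the mouse as a replicate block for Hmga1 (0.0010), without the −7-week libraries of mice 1 to 4 for Hmga1 (0.0013) and St8sia2 (0.024), and without a batch term for Hmga1 (0.022), Sox11 (0.034), Sox4 (0.030), St8sia2 (0.019) and C430049B03Rik (0.012). NOR slopes turned without a filter for Hmga2 (−0.00064) and Sox4 (−0.0014), and for Sox4 also with the mouse as a block (−0.00042) and without the 18-week library of NOR mouse 5 (−0.0030). Between progressors and nonprogressors at 6 weeks, St8sia2 was −0.096 within batch 1 and Sox4 −0.028 within batch 2. C430049B03Rik in later nonprogressors against NOR was 0.0012 without a filter and 0.055 with each sample taken separately. With 1 mouse left out, the NOR slope spanned −0.011 to 0.027 for Hmga2 and −0.0031 to 0.0022 for Sox4, and the nonprogressor slope −0.051 to 0.0043 for Hmga2. The difference of these slopes spanned −0.029 to 0.0097 for Igf2bp2, −0.053 to 0.0039 for Hmga2 and −0.041 to 0.064 for Sox11. The progressor slope spanned −0.014 to 0.0093 for Hmga1 and −0.052 to 0.00036 for C430049B03Rik. NOD against NOR at 6 weeks spanned −0.071 to 0.14 for Hmga1, −0.13 to 0.28 for Hmga2 and −0.081 to 0.70 for Sox11, and later nonprogressors against NOR −0.26 to 0.16 for C430049B03Rik. CPM on the total count in place of TMM moved none of the members' 6-week differences by more than the spread between later libraries, though the sign for Hmga1 in nonprogressors of batch 1 turned (0.13 against −0.082). Depth limits Lin28b and Igf2bp1 throughout.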

Other observations

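The 6 nonprogressor libraries labelled by days after implantation have no age in the labels and entered no test. Their 2 values at 31, 38 and 108 days were 3.14 to 3.38, 2.77 to 3.49 and 3.60 to 3.90 CPM for Igf2bp3 and 0.378 to 0.469, 0.469 to 0.5684 and 0.271 to 0.300 CPM for C430049B03Rik. St8sia2 stood at 0.144 to 0.176, 0.156 to 0.211 and 0.129 to 0.351 CPM. For these 3 genes each value lay below every 6-week nonprogressor library of the same batch. So did Hmga2 (at most 0.957 against 1.83 CPM) and Sox4 (at most 57.4 against 59.0 CPM). Sox11 (up to 0.859 CPM), Hmga1 (123), Igf2bp2 (58.5) and Igf2bp1 (0.0478) reached the lowest 6-week values of 0.794, 97.0, 37.4 and 0.0272 CPM. The share of all genes with this order is not given here.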
